A study of Homo sapiens with 12 samples.

Results

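The collagen genes, taken as every gene whose symbol reads COL, a number, A and a number, were followed in MDA-MB-231 cells given a miR-145-5p mimic, depleted of AGO2, or both. The rule found 44 collagen genes among 20708 genes with a probe on the array, and 1927 collagen probes among 233164. It used names only and no measured value. MDA-MB-231 is an established human breast cancer line of mesenchymal character that lacks estrogen and progesterone receptors. The 4 groups held 3 biological replicates each. The cntrl cells carried a negative control miRNA precursor and a negative control siRNA. The mimic145 cells carried Pre-miR-145-5p, a precursor that yields mature miR-145-5p. The sirnaAGO2 cells carried Dicer-substrate siRNAs (DsiRNAs) against AGO2, the Argonaute with nuclease activity, and the sirnaAGO2+mimic145 cells carried both. The miRNA precursors were used at 5 nM and the DsiRNAs at 500 pM for 72 h. All cells were of 1 line grown in the same medium, and all groups were transfected. Which control oligonucleotide accompanied the mimic145 and the sirnaAGO2 cultures was not given in the labels.

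Collagens are proteins of the extracellular matrix in which alpha chains, each encoded by a gene of its own, wind into a helix. Fibrillar collagens form the ropes of tendon, bone and skin, the type IV chains form the mesh of basement membranes, and beaded filament collagens such as type VI lie around cells. Other classes sit on fibrils, anchor the epidermis or span the plasma membrane. In breast tumors most collagen is laid down by fibroblasts, while carcinoma cells of mesenchymal character make a part of their own.

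The mature miRNA that the mimic yields is shown first because it is the agent of the comparisons. It is encoded on chromosome 5 at chr5:149430661-149430683, plus strand, in GRCh38.p14 (RefSeq). Capitals mark the seed, bases 2 to 8 from the 5′ end.
hsa-miR-145-5p: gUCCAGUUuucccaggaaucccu

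COL4A1 and COL4A2, the genes of the main basement membrane chains, lie head to head on chromosome 13. The 126 bases between their start sites serve both genes, and they are shown because both genes are compared below. They lie at chr13:110307158-110307283 in GRCh38.p14 (RefSeq) and are printed on the plus strand, reading toward COL4A2. Capitals mark a CCAAT box (CCAAT) and a GC box (GGGCGG), searched on both strands without overlap between them. The stretch was 80.2% G and C and held 1 match to each motif and none to TATAAA.
COL4A1 and COL4A2: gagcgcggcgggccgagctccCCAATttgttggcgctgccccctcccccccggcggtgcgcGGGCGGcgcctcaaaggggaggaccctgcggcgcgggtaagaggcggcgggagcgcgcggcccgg

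COL4A5 and COL4A6 form a second head-to-head pair, on chromosome X, with 379 bases between their starts. The 250 bases before the start of COL4A5, at chrX:108439588-108439837 on the plus strand, are shown because COL4A5 moved against COL4A1. Capitals mark 2 matches to CCAAT, the second of them on the minus strand (ATTGG).
COL4A5: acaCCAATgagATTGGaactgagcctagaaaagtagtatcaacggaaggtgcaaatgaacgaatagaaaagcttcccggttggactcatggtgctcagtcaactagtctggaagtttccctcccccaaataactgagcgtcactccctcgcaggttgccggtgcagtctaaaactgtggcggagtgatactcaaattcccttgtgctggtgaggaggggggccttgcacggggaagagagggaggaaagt

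RefSeq promoter windows matched 32 of the 44 collagen genes, with 44 windows in all. The genes without one were COL1A1, COL1A2, COL2A1, COL3A1, COL5A2, COL6A1, COL6A5, COL8A1, COL9A3, COL14A1, COL20A1 and COL22A1. Over the 250 bases before each start, 12 of the 44 collagen windows (27.3%) held CCAAT, against 32% of all 35116 windows. GGGCGG was found in 24 collagen windows (54.5%), against 42.6% of all windows. The median G and C content was 64.2% in the collagen windows and 58% in all windows. A match is a run of letters and not a shown binding site.

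Each sample was hybridized to 1 one-color Agilent exon array, which carries several probes along the exons of each gene. A value below is the log2 of the quantile normalized signal, averaged over the kept probes of a gene. A probe was kept where at least 1 group had it well above background on each of its 3 arrays. Since probes differ in brightness, levels of different genes are not set against each other. Well above background were 60.5 to 77.3% of spots on the 12 arrays, and no spot was saturated. AGO2, the target of the DsiRNAs, checks the labels. Its log2 signal was 9.12 ± 0.10 in cntrl and 9.40 ± 0.04 in mimic145, and after silencing 8.41 ± 0.05 (sirnaAGO2) and 8.34 ± 0.07 (sirnaAGO2+mimic145; mean ± SD, n = 3). The silenced cells retained 61.0% of the AGO2 signal without the mimic and 48.1% with it, and the groups did not overlap (exact permutation test, two-sided, p = 0.1 for each, the smallest that 3 arrays against 3 allow). VIM, CD44 and EGFR, markers present in this line, were well above background on 99.1%, 99.5% and 96.8% of their spots. Of the markers listed as absent, PGR was above background on 4.63% of its spots, PTPRC on 13.6%, ESR1 on 35.7% and CDH1 on 38.0%, whereas GATA3 was above background on 100% of its spots. In a culture measured in bulk, fewer cells with a transcript and less of it per cell cannot be told apart.

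One array stood apart for the collagen genes. On the array of mimic145 replicate 3, 68.3% of collagen probes were well above background, against 37.9 to 60.1% on the other 11 arrays. For all probes the same array read 73.9%, against 55.2 to 70.7% on the others. For the mimic with AGO2 present, the collagen count, the collagen median and the calls of collagen genes are given with and without it. Other results include it unless stated. By replicate, all probes read 68.1, 63.7 and 70.0% in cntrl and 62.0, 56.3 and 73.9% in mimic145. They read 67.6, 65.1 and 70.7% in sirnaAGO2 and 63.3, 55.2 and 66.2% in sirnaAGO2+mimic145. Each slide held a sample without the mimic in the first position and its counterpart with the mimic in the second, so position and mimic cannot be told apart.

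**Figure D1:**
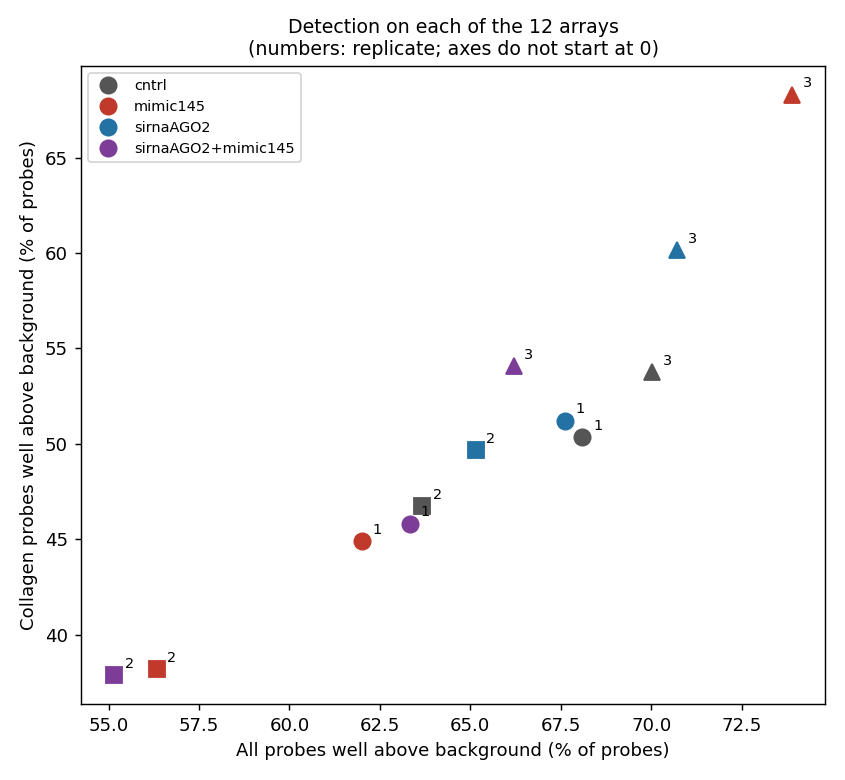
Share of all probes (x axis, %) and of the 1927 collagen probes (y axis, %) called well above background on each of the 12 arrays. Colors mark the group and the number beside a point its replicate. The array of mimic145 replicate 3 reads highest on both axes, at 73.9% and 68.3%.

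All 44 collagen genes had at least 1 kept probe, and 967 of their 1927 probes were kept. A gene carried 2 to 111 probes (median 48). COL8A2 rested on a single kept probe, which in sirnaAGO2+mimic145 was not well above background on all 3 arrays. In cntrl cells, 19 genes had at least 50% of their probes well above background on all 3 arrays. COL8A1 led with all 5 of its probes, followed by COL5A1 with 97.0% of 66, COL6A2 with 96.4% of 28, COL6A1 with 93.1% of 29, COL4A2 with 91.7% of 48 and COL12A1 with 90.9% of 66. Detection was uneven within a class. Among the type V chains, for example, COL5A1 was read by nearly all its probes, whereas COL5A2 was read by 13.7% of 51. COL6A3, the third chain of type VI collagen, was read by 16.3% of 43. At the bottom of the list, COL6A5 was read by 2.50% of its 40 probes, COL24A1 by 3.39% of 59 and COL28A1 by 6.25% of 32.

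**Figure D2:**
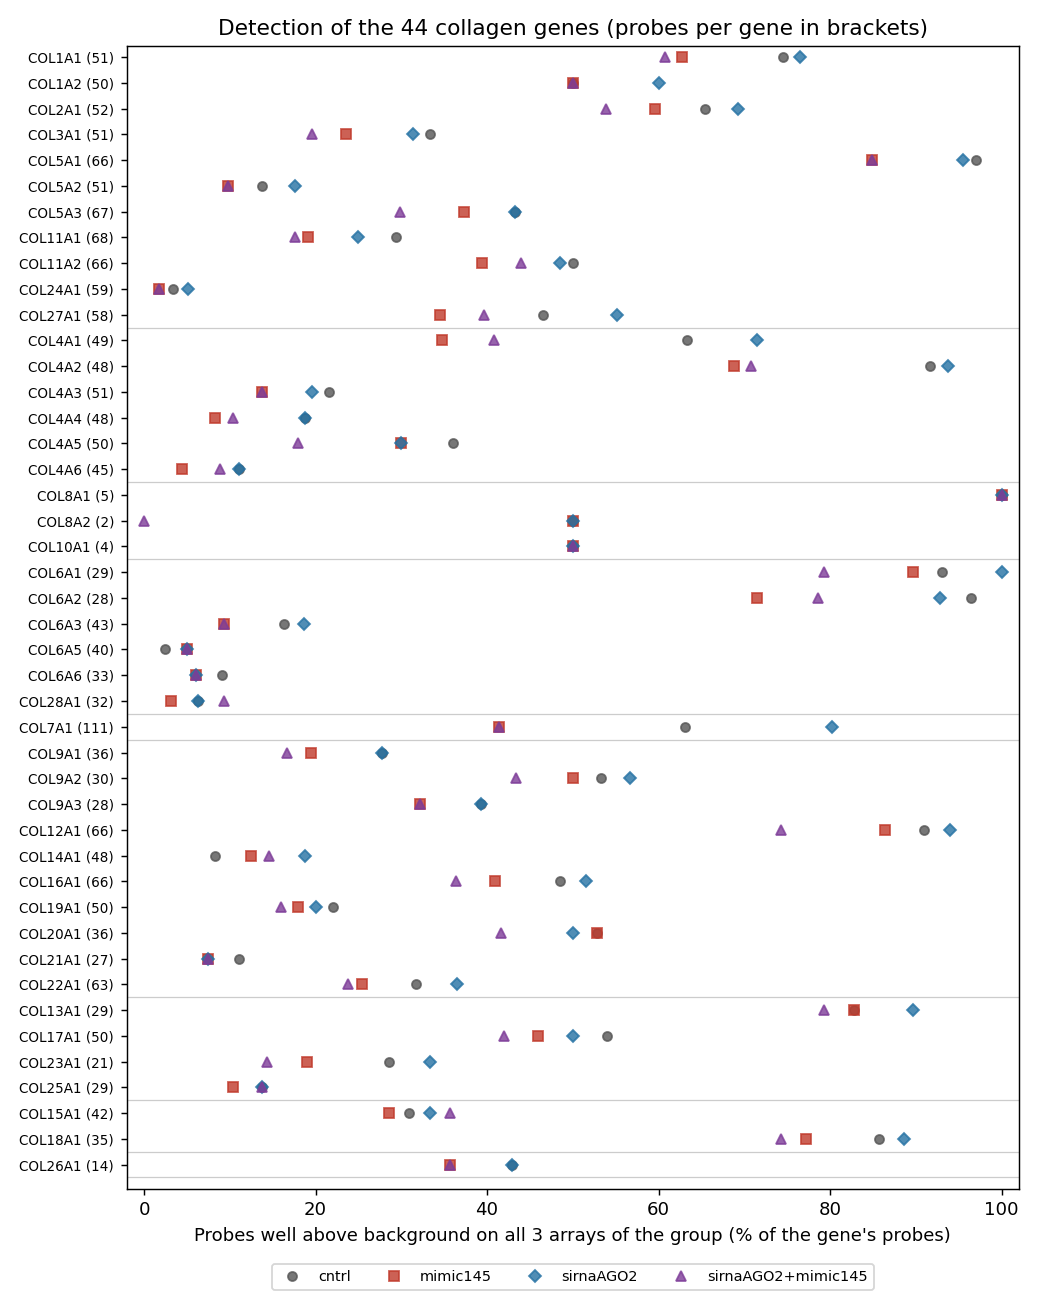
Probes of each of the 44 collagen genes that were well above background on all 3 arrays of a group (x axis, % of the gene's probes, with the number of probes in brackets). Symbols mark the 4 groups and gray lines separate the structural classes. Detection ran from 100% (COL8A1) to 2.50% (COL6A5) in cntrl.

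The first comparison asks what the mimic does in cells with AGO2. After the mimic, 4 collagen genes rose and 1 fell. COL6A1, a chain of the type VI beaded filaments, rose 1.48-fold. COL13A1, a collagen that spans the plasma membrane, rose 1.27-fold. COL28A1, a small relative of type VI collagen, rose 1.25-fold and COL4A5, a minor basement membrane chain, 1.19-fold. COL4A1, a major basement membrane chain, fell to 0.822 of its cntrl level. These 5 of 44 genes (11.4%) passed limma's test (Benjamini-Hochberg adjusted p under 0.05 over 18253 genes), whereas 22.6% of all genes passed. Of all genes 11.6% rose and 11% fell. At an unadjusted p under 0.05, 12 collagen genes (27.3%) passed, against 35.4% of all genes. The median log2 difference was 0.06 over the collagen genes and 0.01 over all genes.

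The collagen median was not alike in the 3 replicate pairs, at -0.04, -0.10 and 0.28, and the last of these holds mimic145 replicate 3. Without that array, 3 of 44 collagen genes passed (COL6A1, COL4A1 and COL4A4), against 17% of all genes, and the median was -0.02. The call of COL6A1 held when any single one of the 12 arrays was left out, but with all arrays of replicate 1 or of replicate 3 out its adjusted p was 0.0581 (log2 difference 0.61) or 0.0514 (0.41). COL4A5 passed in 8 of those 12 settings, COL13A1 in 7, COL28A1 in 5 and COL4A1 in 4. The number of collagen genes that passed went to 3 without cntrl replicate 3, mimic145 replicate 3, sirnaAGO2 replicate 1 or sirnaAGO2 replicate 2, to 2 without cntrl replicate 2 or sirnaAGO2 replicate 3, and to 1 without mimic145 replicate 2. Without cntrl replicate 3 the genes were COL6A1, COL5A1 and COL8A1, and COL5A1 and COL8A1 did not pass with all arrays. The number that passed was 1 (COL6A1) in a fit without the replicate block and 0 in a fit of the 6 compared arrays alone. With each array scaled by its 75th percentile 4 collagen genes rose (COL6A1, COL13A1, COL4A5 and COL8A2) and COL4A1 differed by -0.17 (adjusted p = 0.303).

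**Figure D3:**
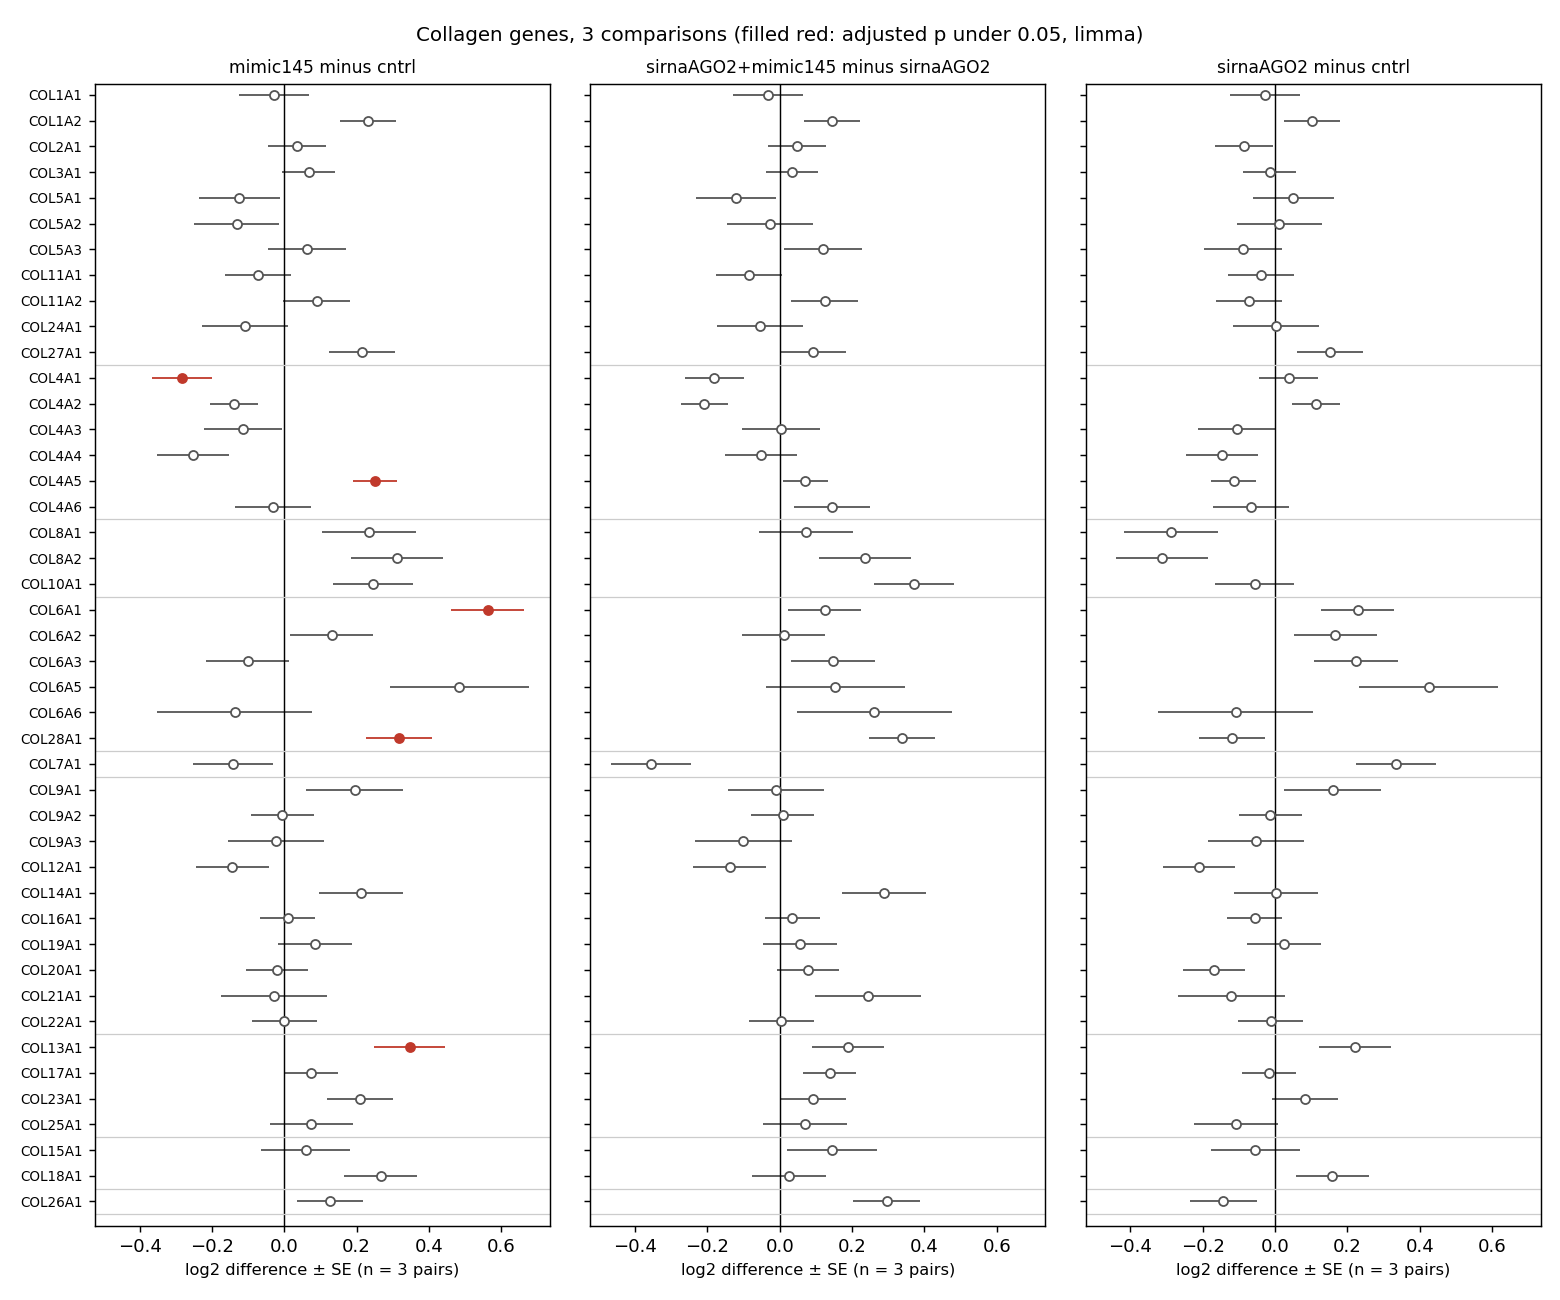
Log2 difference of the 44 collagen genes (x axis, point and SE of the limma fit, 3 pairs) after the mimic (left), after the mimic in AGO2-silenced cells (middle) and after silencing (right). Red marks an adjusted p under 0.05: COL6A1, COL13A1, COL28A1, COL4A5 and COL4A1 on the left, and no gene in the middle or on the right.

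Type VI collagen and its relatives held COL6A1, the largest log2 difference of the 44 genes. COL6A1 read 7.85, 7.68 and 7.53 on the 3 cntrl arrays and 8.31, 8.04 and 8.40 in mimic145, while sirnaAGO2 gave 7.96, 7.95 and 7.83 and sirnaAGO2+mimic145 gave 8.09, 7.95 and 8.07. All mimic145 arrays lay above all cntrl arrays, while the 2 silenced groups overlapped. The difference after the mimic was 0.56 (SE 0.10, limma adjusted p = 0.00455), with 0.46, 0.36 and 0.87 in the 3 pairs. Of its 29 kept probes 28 were higher after the mimic, 27 of them in all 3 pairs, so nearly all probes along the gene had the same sign. Without mimic145 replicate 3 it was 0.45 (adjusted p = 0.0161). COL6A2, which pairs with COL6A1 in the type VI molecule and neighbors it on chromosome 21, read 7.84, 7.86 and 7.61 in cntrl and 7.80, 7.75 and 8.14 in mimic145, while sirnaAGO2 gave 7.89, 7.90 and 8.01 and sirnaAGO2+mimic145 gave 8.03, 7.85 and 7.96. Its mimic145 arrays of replicates 1 and 2 lay within the cntrl range and that of replicate 3 above it. The difference was 0.13 (SE 0.11, adjusted p = 0.456). COL6A3, the third chain, differed by -0.10 (adjusted p = 0.576), with 5 of its 10 kept probes higher and 5 lower. Neither partner passed, and whether their differences departed from that of COL6A1 was not tested.

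COL28A1 was dim, with 4 of its 32 probes kept and none well above background on all 12 arrays. It read 6.22, 6.35 and 5.99 in cntrl and 6.30, 6.67 and 6.55 in mimic145, while sirnaAGO2 gave 5.98, 6.25 and 5.99 and sirnaAGO2+mimic145 gave 6.30, 6.49 and 6.43. The mimic145 and cntrl arrays overlapped although each pair was higher (0.07, 0.32 and 0.56). The difference was 0.32 (SE 0.09, limma adjusted p = 0.0353), and 0.25 (adjusted p = 0.124) without mimic145 replicate 3. COL6A5 and COL6A6, chains found in few tissues, kept 2 of 40 and 3 of 33 probes and differed by 0.48 and -0.14 without passing.

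Among the type IV chains 1 gene fell and 1 rose. COL4A1 read 7.28, 7.47 and 7.40 in cntrl and 6.93, 7.12 and 7.25 in mimic145, while sirnaAGO2 gave 7.40, 7.49 and 7.36 and sirnaAGO2+mimic145 gave 7.24, 7.30 and 7.18. Both groups with the mimic lay below their counterparts without overlap. The difference was -0.28 (SE 0.08, limma adjusted p = 0.0373) with AGO2 present and -0.18 (SE 0.08, adjusted p = 0.184) with AGO2 silenced. With AGO2 present 27 of its 35 kept probes were lower. The number of its 49 probes well above background on all 3 arrays was 31 in cntrl and 17 in mimic145, and after silencing 35 (sirnaAGO2) and 20 (sirnaAGO2+mimic145). Detection over all probes was also lower with the mimic, except on mimic145 replicate 3. With AGO2 present and probes restricted to those well above background on all 12 arrays, COL4A1 differed by -0.17 (limma adjusted p = 0.141). Of these 15 probes 11 were lower, whereas with AGO2 silenced 7 were lower and 8 higher. COL4A2, the gene across the printed stretch, read 7.56, 7.74 and 7.53 in cntrl and 7.37, 7.51 and 7.53 in mimic145, while sirnaAGO2 gave 7.65, 7.82 and 7.70 and sirnaAGO2+mimic145 gave 7.49, 7.59 and 7.46. It differed by -0.14 (SE 0.07, adjusted p = 0.165) with AGO2 present and by -0.21 (SE 0.07, adjusted p = 0.082) with AGO2 silenced, with no overlap only in the second comparison. Neither passed, so COL4A2 had the sign of COL4A1 in both comparisons without a call. Of its 32 probes well above background on every array, 17 were lower and 15 higher with AGO2 present. With AGO2 silenced 22 of them were lower and 10 higher.

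COL4A5 read 6.65, 6.62 and 6.73 in cntrl and 6.80, 6.92 and 7.04 in mimic145, while sirnaAGO2 gave 6.53, 6.54 and 6.59 and sirnaAGO2+mimic145 gave 6.58, 6.61 and 6.68. The mimic145 arrays lay above all others, and the sirnaAGO2 arrays below all cntrl arrays. The difference after the mimic was 0.25 (SE 0.06, limma adjusted p = 0.0189), and 0.22 (adjusted p = 0.0679) without mimic145 replicate 3. Over the 7 of its 50 probes that were well above background on every array it was 0.20 (adjusted p = 0.166). Of its 22 kept probes 18 were higher after the mimic, but 3 of the 22 passed the filter only through mimic145 and 2 only through cntrl. COL4A6, its head-to-head neighbor, kept 6 of 45 probes and differed by -0.03. COL4A3 and COL4A4, the chains of glomerular basement membrane, differed by -0.11 and -0.25 and did not pass. Without mimic145 replicate 3 COL4A4 differed by -0.37 (adjusted p = 0.0278), and with that array included 1 of its 10 kept probes stood at -3.23 while the median probe stood at 0.08.

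**Figure D4:**
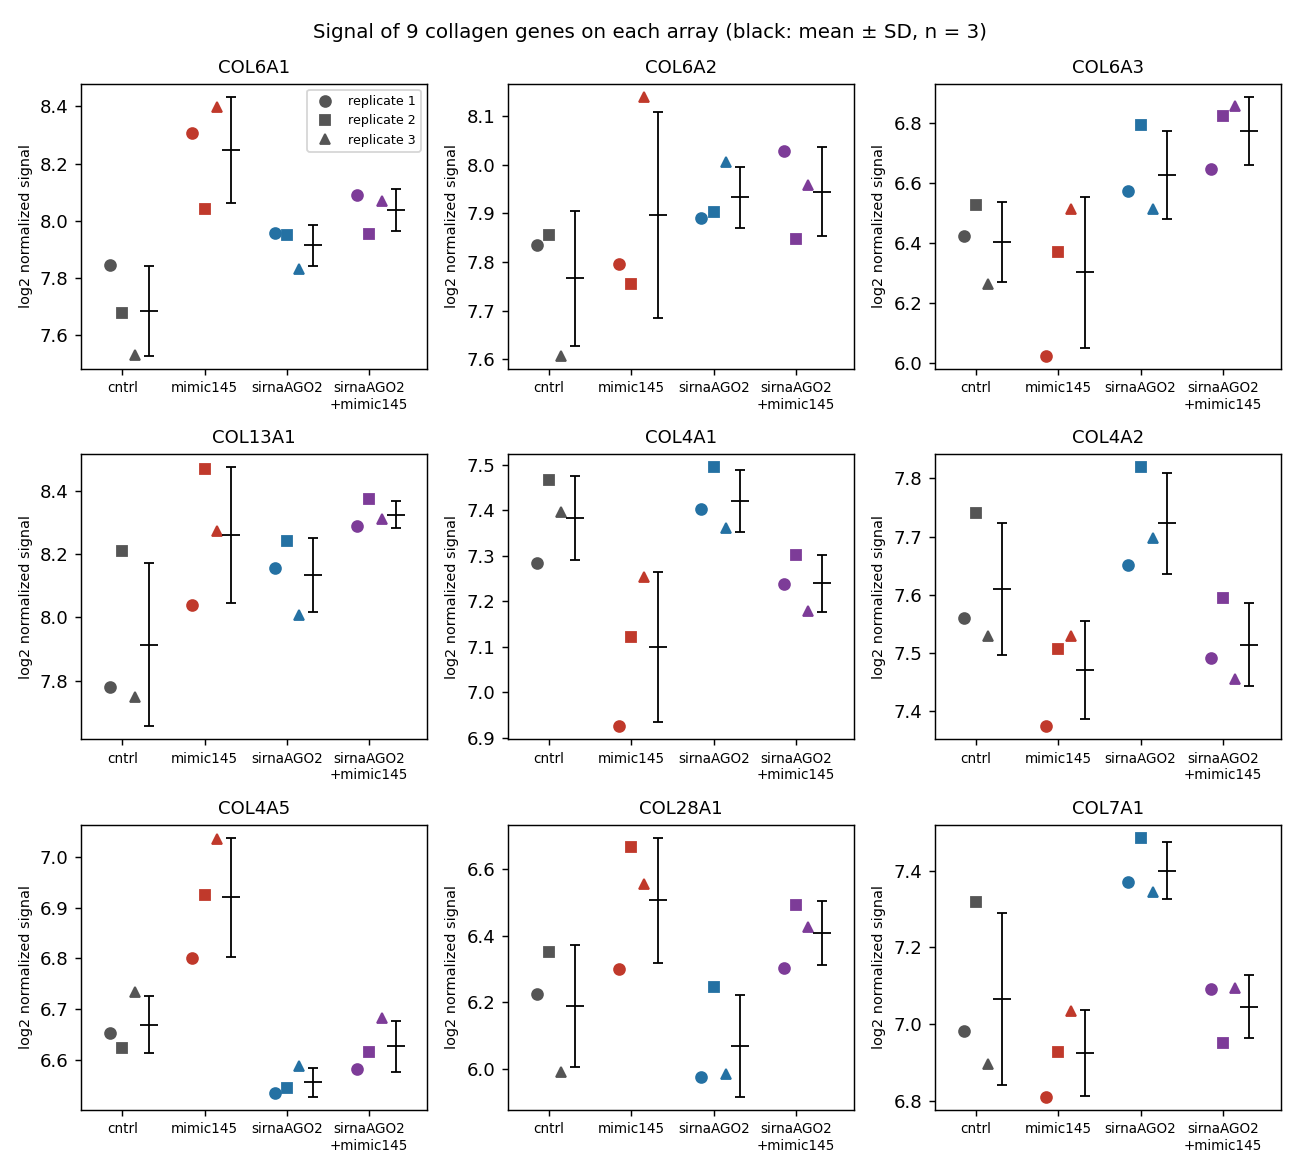
Log2 normalized signal (y axis, scaled for each gene and not starting at 0) of 9 collagen genes on each of the 12 arrays. Colored points are arrays, with the replicate given by shape, and black bars are mean ± SD (n = 3). COL6A1 and COL4A5 in mimic145 lie above all cntrl arrays and COL4A1 below them, whereas COL7A1 is highest in sirnaAGO2.

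COL13A1 read 7.78, 8.21 and 7.75 in cntrl and 8.04, 8.47 and 8.27 in mimic145, while sirnaAGO2 gave 8.16, 8.24 and 8.01 and sirnaAGO2+mimic145 gave 8.29, 8.37 and 8.31. Replicate 2 was the highest array of each group, and cntrl and mimic145 overlapped while each pair differed, by 0.26, 0.26 and 0.52. The difference was 0.35 (SE 0.10, limma adjusted p = 0.0348), with 25 of 26 kept probes higher and 22 of them in all 3 pairs. It was 0.29 (adjusted p = 0.119) without mimic145 replicate 3. COL17A1, the transmembrane collagen of hemidesmosomes, read 7.77, 7.73 and 7.44 in cntrl and 7.69, 7.80 and 7.66 in mimic145, while sirnaAGO2 gave 7.69, 7.65 and 7.55 and sirnaAGO2+mimic145 gave 7.74, 7.88 and 7.68. Its groups overlapped in every comparison and the mimic difference was 0.07 (SE 0.07, adjusted p = 0.525). COL23A1 and COL25A1, the other transmembrane members, differed by 0.21 and 0.08 without passing.

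**Figure D5:**
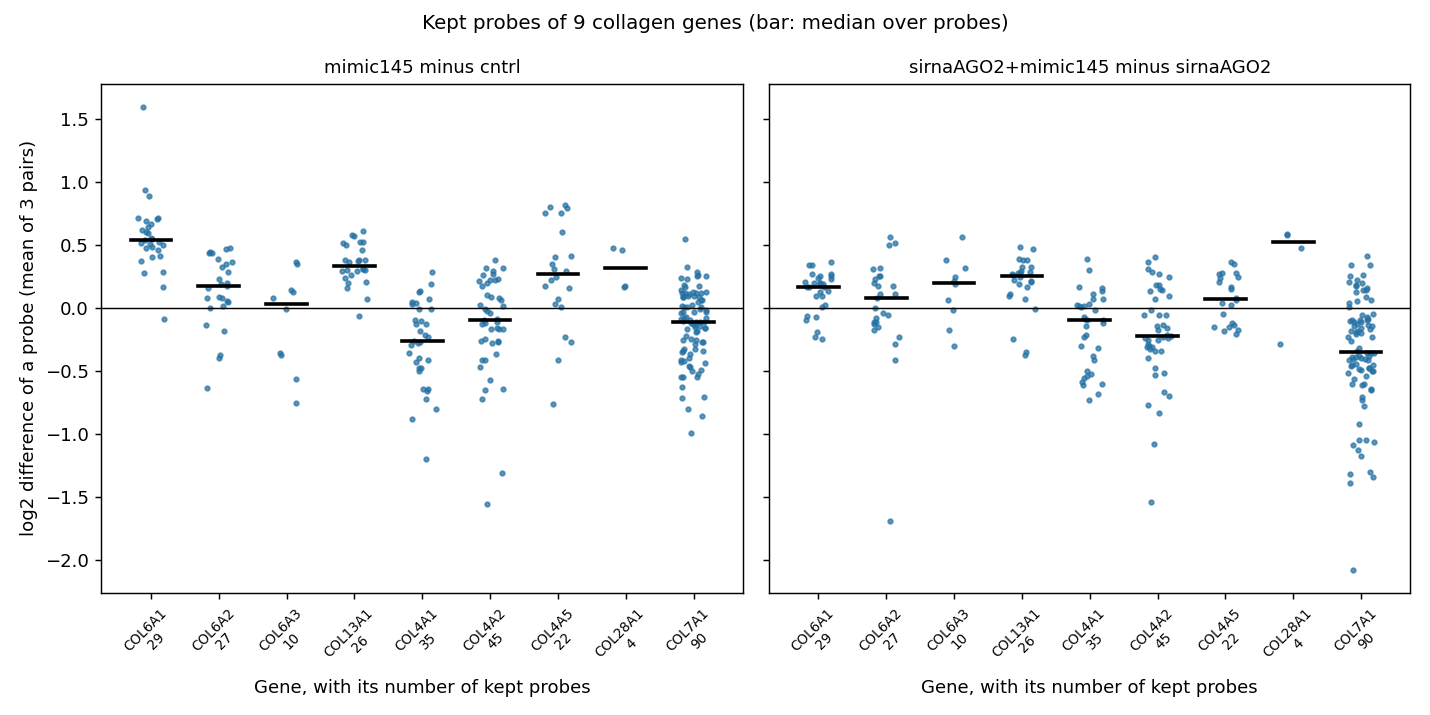
Log2 difference of each kept probe (y axis, mean of the 3 pairs) of 9 collagen genes after the mimic with AGO2 present (left) and silenced (right). Points are probes, the bar is their median and the number under each gene is its count of kept probes. On the left 28 of 29 COL6A1 probes and 25 of 26 COL13A1 probes lie above 0, and 27 of 35 COL4A1 probes lie below it. On the right 71 of 90 COL7A1 probes lie below 0, but 89 of the 90 passed the filter in sirnaAGO2 and 46 in sirnaAGO2+mimic145. Of its 39 probes well above background on every array 24 were lower and 15 higher.

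No fibrillar collagen passed (0 of 11), and their median log2 difference after the mimic was 0.04. COL1A1, the main chain of type I collagen, read 8.48, 8.44 and 8.30 in cntrl and 8.30, 8.30 and 8.53 in mimic145, while sirnaAGO2 gave 8.31, 8.40 and 8.43 and sirnaAGO2+mimic145 gave 8.16, 8.46 and 8.41. All 4 groups overlapped and the difference was -0.03 (SE 0.10, adjusted p = 0.866). COL1A2, the second chain of type I, read 7.33, 7.38 and 7.37 in cntrl and 7.45, 7.60 and 7.73 in mimic145, while sirnaAGO2 gave 7.40, 7.43 and 7.56 and sirnaAGO2+mimic145 gave 7.39, 7.62 and 7.80. Every mimic145 array lay above every cntrl array, but the difference of 0.23 (SE 0.08, limma adjusted p = 0.0611) did not pass. COL2A1, known from cartilage, read 8.12, 8.26 and 7.98 in cntrl and 8.09, 8.17 and 8.21 in mimic145, while sirnaAGO2 gave 7.98, 8.05 and 8.08 and sirnaAGO2+mimic145 gave 7.97, 8.21 and 8.07. Its groups overlapped throughout, with a difference of 0.04 (SE 0.08) after the mimic.

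COL5A1, which starts and limits fibril growth, read 8.16, 8.21 and 7.70 in cntrl and 7.88, 7.89 and 7.93 in mimic145, while sirnaAGO2 gave 8.01, 8.17 and 8.04 and sirnaAGO2+mimic145 gave 7.91, 8.01 and 7.94. Replicate 3 of cntrl was low, and the mimic difference was -0.12 (SE 0.11, adjusted p = 0.467). Without that array COL5A1 passed as lower. COL11A2, a relative of type V, read 7.40, 7.57 and 7.22 in cntrl and 7.37, 7.47 and 7.62 in mimic145, while sirnaAGO2 gave 7.27, 7.39 and 7.32 and sirnaAGO2+mimic145 gave 7.40, 7.55 and 7.40. It differed by 0.09 (SE 0.09, adjusted p = 0.531). The other fibrillar genes (COL3A1, COL5A2, COL5A3, COL11A1, COL24A1 and COL27A1) differed by -0.13 to 0.21, and COL27A1, at 0.21, had an unadjusted p = 0.043 and an adjusted p = 0.127 in limma.

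Among the short-chain network collagens all 3 genes had a positive difference and none passed. COL8A1, known from vessel walls, read 9.02, 9.53 and 9.75 in cntrl and 9.35, 9.90 and 9.75 in mimic145, while sirnaAGO2 gave 8.83, 9.40 and 9.20 and sirnaAGO2+mimic145 gave 9.04, 9.58 and 9.04. Replicate 1 was the lowest array or close to it in each group, and the groups overlapped. The mimic difference was 0.24 (SE 0.13, adjusted p = 0.232), and without cntrl replicate 3 COL8A1 passed as higher. COL8A2, on its single probe, read 6.04, 6.58 and 6.19 in cntrl and 6.34, 6.79 and 6.61 in mimic145, while sirnaAGO2 gave 5.81, 6.02 and 6.04 and sirnaAGO2+mimic145 gave 6.03, 6.08 and 6.48. Each pair was higher after the mimic, by 0.31 on average (SE 0.13, adjusted p = 0.115). COL10A1, the collagen of hypertrophic cartilage, with 2 of 4 probes kept, read 6.73, 6.65 and 6.48 in cntrl and 6.72, 7.11 and 6.76 in mimic145, while sirnaAGO2 gave 6.57, 6.69 and 6.43 and sirnaAGO2+mimic145 gave 6.88, 7.30 and 6.62. The mimic difference was 0.25 (SE 0.11, adjusted p = 0.146).

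The fibril-associated collagens, which decorate fibrils, passed in 0 of 10 cases, with a median close to 0. COL9A2 read 7.73, 8.17 and 7.67 in cntrl and 7.75, 7.96 and 7.85 in mimic145, while sirnaAGO2 gave 7.78, 8.02 and 7.72 and sirnaAGO2+mimic145 gave 7.63, 8.06 and 7.86. Replicate 2 was the highest array of each group and the groups overlapped. COL12A1, found on fibrils under tension, read 8.18, 8.26 and 8.63 in cntrl and 8.16, 8.30 and 8.19 in mimic145, while sirnaAGO2 gave 8.03, 8.25 and 8.16 and sirnaAGO2+mimic145 gave 7.97, 7.95 and 8.11. It differed by -0.14 (SE 0.10, adjusted p = 0.346), with 54 of 62 kept probes lower but only 8 of them in all 3 pairs. COL20A1 read 7.94, 8.01 and 7.90 in cntrl and 7.79, 7.98 and 8.03 in mimic145, while sirnaAGO2 gave 7.75, 7.85 and 7.75 and sirnaAGO2+mimic145 gave 7.67, 8.09 and 7.83. The mimic difference was -0.02 (SE 0.09). The other members (COL9A1, COL9A3, COL14A1, COL16A1, COL19A1, COL21A1 and COL22A1) differed by -0.03 to 0.21.

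COL18A1, whose C-terminal fragment is endostatin, read 8.34, 8.45 and 8.01 in cntrl and 8.48, 8.51 and 8.60 in mimic145, while sirnaAGO2 gave 8.35, 8.50 and 8.42 and sirnaAGO2+mimic145 gave 8.35, 8.56 and 8.44. All mimic145 arrays were above all cntrl arrays, yet most of the difference of 0.27 (SE 0.10, limma adjusted p = 0.0936) came from the third pair, with 0.15, 0.06 and 0.59. COL15A1, the other multiplexin, differed by 0.06 and COL26A1, a short collagen of testis and ovary, by 0.13. Over all 44 genes, 7 had mimic145 and cntrl arrays that did not overlap (15.9%), against 28.4% of all genes. Of these 6 were higher (COL1A2, COL4A5, COL6A1, COL18A1, COL23A1 and COL27A1) and 1 was lower (COL4A1).

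The second comparison asks what the mimic does once AGO2 is silenced. No collagen gene passed in limma (0 of 44), whereas 7.28% of all genes did, 4.25% higher and 3.03% lower. At an unadjusted p under 0.05 there were 6 collagen genes (13.6%), against 28.8% of all genes. Of these COL10A1, COL28A1, COL26A1 and COL14A1 were higher and COL7A1 and COL4A2 lower. The median log2 difference was 0.07 over the collagen genes, with 0.03, 0.06 and 0.07 in the 3 pairs, and 0.02 over all genes. The smallest adjusted p was 0.0558, for COL28A1, which differed by 0.34 (SE 0.09) and by 0.33, 0.25 and 0.44 in the pairs. COL10A1 differed by 0.37 (SE 0.11, adjusted p = 0.0708) and COL26A1 by 0.30 (SE 0.09, adjusted p = 0.0783). With probes restricted to those well above background on every array COL10A1, COL23A1, COL24A1 and COL26A1 passed, all higher (4 of 42, 9.52%, against 12.8% of all genes). There COL24A1 rested on 1 probe, and COL10A1 and COL23A1 on 2 each. Over its 3 kept probes COL24A1 differed by -0.05, with 2 of them lower. With the 75th percentile scaling COL8A2, COL10A1, COL14A1 and COL28A1 passed. COL28A1 also passed without cntrl replicate 3 and COL26A1 without sirnaAGO2+mimic145 replicate 1.

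COL7A1, the only chain of the anchoring fibrils that fasten the epidermis, was highest in sirnaAGO2. It read 6.98, 7.32 and 6.90 in cntrl and 6.81, 6.93 and 7.03 in mimic145, while sirnaAGO2 gave 7.37, 7.49 and 7.34 and sirnaAGO2+mimic145 gave 7.09, 6.95 and 7.10. The sirnaAGO2 arrays lay above those of the other 3 groups without overlap. With AGO2 silenced the mimic difference was -0.36 (SE 0.11, limma adjusted p = 0.0795), and 71 of its 90 kept probes were lower. Of those 90 probes 89 passed the filter in sirnaAGO2 and 46 in sirnaAGO2+mimic145. Over the 39 probes well above background on every array it was -0.11 (SE 0.09, adjusted p = 0.432), with 24 of them lower. With AGO2 present it was -0.14 (SE 0.11, adjusted p = 0.401). Of its 111 probes, 70 were well above background on all 3 arrays in cntrl and 46 in mimic145, and after silencing 89 (sirnaAGO2) and 46 (sirnaAGO2+mimic145). As for COL4A1, these counts stand beside the lower detection over all probes with the mimic. Over the 44 genes 9 had silenced groups that did not overlap (20.5%), against 24.1% of all genes. These were COL4A6, COL11A2, COL13A1, COL21A1 and COL28A1 above and COL4A1, COL4A2, COL5A1 and COL7A1 below.

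The third comparison, sirnaAGO2 against cntrl, shows AGO2 silencing alone. No collagen gene passed in limma (0 of 44), against 2.57% of all genes (0.888% higher and 1.69% lower). At an unadjusted p under 0.05 there were 3 collagen genes (6.82%), against 19% of all genes. They were COL7A1, higher by 0.34 (SE 0.11, adjusted p = 0.149), COL6A1, higher by 0.23 (SE 0.10, adjusted p = 0.263), and COL8A2, lower (log2 difference -0.31, SE 0.13, adjusted p = 0.228). The collagen median was -0.02 and that of all genes -0.03. In COL7A1 77 of the 90 kept probes were higher, but 89 of the 90 passed the filter in sirnaAGO2 and 70 in cntrl, 19 of them in sirnaAGO2 alone, so the filter favored the group where the gene was high. Over its 39 probes well above background on every array the difference was 0.21 (SE 0.09, adjusted p = 0.177), with 30 of them higher. COL12A1 differed by -0.21 (SE 0.10, adjusted p = 0.3), with -0.15, -0.005 and -0.47 in the 3 pairs. Of its 62 kept probes 59 were lower, but only 29 of them in all 3 pairs. In 6 genes the groups did not overlap (13.6%), against 19.1% of all genes, with COL1A2, COL6A2, COL7A1 and COL23A1 above and COL4A5 and COL20A1 below. Since sirnaAGO2 and cntrl lay on separate slides, slide and silencing cannot be told apart.

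Whether the mimic acted differently on collagen genes with and without AGO2 was tested as the difference between the mimic effects. No collagen gene passed in limma (0 of 44), and over all genes 2 did (0.011%, with 0.00548% higher and 0.00548% lower). At an unadjusted p under 0.05 there was 1 collagen gene, against 16.8% of all genes. This was COL6A1, whose mimic difference was 0.56 with AGO2 present and 0.12 with AGO2 silenced. The difference between them was -0.44 (SE 0.14, adjusted p = 0.192), with -0.32, -0.36 and -0.63 in the 3 replicates. COL4A5 gave -0.18 (SE 0.09, adjusted p = 0.337), COL13A1 -0.16 (SE 0.14, adjusted p = 0.586), COL4A1 0.10 (SE 0.12, adjusted p = 0.673) and COL28A1 0.02 (SE 0.13, adjusted p = 0.95). Without mimic145 replicate 3 the collagen median of the difference between the mimic effects was 0.08, against 0.005 with all arrays. Without that array none of all the genes tested passed. A p above the threshold does not show that the mimic effects were alike.

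The genes that make, export, trim, bind and degrade collagen were read from lists of 95 genes, of which 90 were tested. After the mimic 31 of them passed (34.4%), 15 higher and 16 lower, against 22.6% of all genes. Their median difference was -0.01. Of the 19 genes of collagen synthesis in the endoplasmic reticulum, 5 fell and 3 rose. PLOD2, the lysyl hydroxylase of telopeptides, fell by 0.88 on the log2 scale (SE 0.16, limma adjusted p = 0.00496). P4HA1, a catalytic chain of prolyl 4-hydroxylase, fell by 0.83 (SE 0.11, adjusted p = 0.00105). CRTAP, of the prolyl 3-hydroxylation complex, fell by 0.66 (SE 0.09, adjusted p = 0.00145), and P4HA2 and COLGALT2 also fell. FKBP14, a prolyl isomerase, rose by 0.85 (SE 0.11, adjusted p = 0.00122). SERPINH1, the collagen chaperone HSP47, rose by 0.38 (SE 0.10, adjusted p = 0.0219), and the lysyl hydroxylase PLOD3 rose by 0.23 (SE 0.07, adjusted p = 0.0444), a call lost in 20 of 28 alternatives.

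Of the 10 genes of procollagen export, MIA3 (TANGO1, which loads procollagen at exit sites) rose by 0.59, SEC13 by 0.43 and SEC24D by 0.36, the last pair being coat proteins of COPII vesicles. None of the 10 passed as lower. Of 14 genes tested for propeptide cleavage and cross-linking, LOXL2 rose by 0.41 and BMP1, the C-propeptidase, LOX and LOXL1 fell, by 0.33, 0.34 and 0.33. The calls of LOX and LOXL1 were each lost in 19 of 28 alternatives (adjusted p up to 0.297 and 0.307 in limma), those of BMP1 in 7 and of LOXL2 in 5. MEP1B was not tested, since none of its probes was kept.

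Of 13 collagen receptors, ANTXR2 rose by 0.65, ITGA2, the alpha chain of the main collagen-binding integrin of epithelial cells, by 0.48, and ADGRG1 by 0.44. DDR1, the receptor tyrosine kinase for collagens, fell by 0.79 (SE 0.09, adjusted p = 0.000721 in limma) and ITGA1 by 0.55. Of the 19 kept DDR1 probes 19 passed the filter in cntrl and 12 in mimic145, and of 14 for ITGA1, 11 and 7. Over the alternatives DDR1 differed by -0.93 to -0.44 and ITGA1 by -0.69 to -0.33. Of the 7 collagen-degrading genes tested, MMP14, the membrane-bound collagenase, fell by 0.47, a mean over its 10 probes, all of them kept. MMP1, the interstitial collagenase, rose by 1.36 (SE 0.31, adjusted p = 0.0139), a value that rests on 1 of its 10 probes. MMP13 was not tested.

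Of 10 collagen-binding matrix genes tested, TGFBI fell by 1.37 (SE 0.13, limma adjusted p = 0.000262), and THBS1 fell by 1.08. LUM, lumican, counted among the lower genes, had 1 kept probe that was well above background on all 3 cntrl arrays and on none of the other 9, so it entered the test only through the group where it was high and its difference is not given as a fall. FN1, fibronectin, rose by 0.45 and DCN, decorin, by 0.31 on 2 kept probes. ASPN, FMOD and POSTN were not tested. Of 17 transcription factors known at collagen promoters, CEBPB rose by 0.97 on its only probe and SRF by 0.52, whereas SMAD4 fell by 0.29 and SP3 by 0.26. Among the calls of these lists after the mimic, that of SP3 was lost in 13 of 28 alternatives and those of ADGRG1 and SEC24D in 11. The calls of SERPINH1 and FN1 were lost in 10 of 28, and those of MMP1 and DCN in 9 of 27. Apart from PLOD3, LOX and LOXL1, given above, the rest were lost in at most 7.

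With AGO2 silenced, 6 of the 90 genes passed after the mimic (6.67%, against 7.28% of all genes). DDR1 fell by 0.45 and ITGB1, the beta chain of the collagen-binding integrins, by 0.35. Over probes well above background on every array neither passed (adjusted p = 0.0627 and 0.147 in limma). MMP1 rose by 1.22, BGN by 0.60, SPARC by 0.42 and DCN by 0.34, the last 3 being matrix proteins that bind collagen. These calls were lost in 21 of 28 alternatives for ITGB1, 18 of 28 for SPARC, 15 of 28 for DDR1, 12 of 28 for BGN, 17 of 27 for MMP1 and 15 of 27 for DCN. After silencing alone 3 of 90 passed (3.33%, against 2.57% of all genes), all lower. RUNX2, a factor of bone formation, differed by -0.41 and LOXL4 by -0.37, and their calls were lost in 19 and 18 of 27 alternatives (adjusted p up to 0.413 and 0.347 in limma). The third was LUM, which entered only through cntrl as given above. In the difference between the mimic effects none of the 90 passed.

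Fibroblast markers were read because fibroblasts are the main source of collagen in tumors. All 8 had at least 1 kept probe. The log2 of their summed signal was 10.07 to 10.32 in cntrl and 10.08 to 10.23 in mimic145, and after silencing 9.92 to 10.05 (sirnaAGO2) and 10.15 to 10.39 (sirnaAGO2+mimic145). After the mimic 2 of 8 passed, against 22.6% of all genes, with DCN higher and LUM, which entered only through cntrl, lower. In the silenced cells 3 of 8 passed, against 7.28% of all genes, and PDGFRB, THY1 and DCN rose, by 0.48, 0.56 and 0.34. The DCN call was lost in 15 of 27 alternatives, and those of PDGFRB and THY1 were not followed in the alternatives. PDGFRA, FAP, DCN and LUM were above background on 4.17%, 10.6%, 18.5% and 13.9% of their spots. Of the kept probes, those well above background on every array were 0 of 2 for PDGFRA, 0 of 3 for FAP, 0 of 2 for DCN and 0 of 1 for LUM. The other markers had 7 of 12 (PDGFRB), 3 of 4 (PI16), 1 of 2 (THY1) and 1 of 1 (DPT). These shares leave out the probes that the filter dropped. The part of these genes in the collagen values was not tested.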

How the data were processed

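Total RNA of the 12 cultures was hybridized to 12 one-color exon arrays. The deposited scanner files hold spot intensities that the authors obtained with Agilent Feature Extraction 10.7.3.1 (background subtracted, array design on hg19). The authors also deposited a log2 table, which per the methods was floored at 1 and quantile normalized, and it served as an alternative. Here the processed intensities were floored at 1, quantile normalized and log2 transformed, after removal of control and outlier spots. Of the probes 89.9% were assigned to a gene through RefSeq transcript accessions (GRCh38.p14). Kept probes were averaged per gene and 18253 genes were tested with limma 3.58.1 (R 4.3.3), with a term for the replicate number. Benjamini-Hochberg adjustment ran over all 18253, and every adjusted p is from this fit or its alternatives. Same-numbered samples deviated together (r = 0.139 to 0.577 over 18 pairs of arrays, against -0.495 to 0.201 over 36 others), and the number of arrays limits the precision. Named with the values of every array were the collagen genes that passed and those with at least 50% of probes detected in cntrl. The members and gene lists were chosen with earlier results of these data known. The fit was tested on simulated data.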

Additional observations from a re-analysis of the deposited data

How the results depend on the processing

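After the mimic 5 collagen genes passed (4 higher, 1 lower). The samples are paired by replicate number, and without the replicate block the count was 1. It was 3 with the slide as a fixed block, 3 with an intensity trend, 0 with only the compared arrays, 1 with a log2 difference over 0.5 required, 3 with mimic145 array 3 out of the filter and the fit (chosen after seeing the data), 8 with the authors' log2 table and 10 without a filter on dim probes. The methods' t-test gave 2 genes at its unadjusted threshold and 0 after adjustment. Leaving out replicates gave 1 to 6.

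With AGO2 silenced the count of 0 became 4 with the 75th percentile scaling, 3 with normexp, 2 with the authors' log2 table, 4 with probes detected on every array, 1 with the median over probes and 8 with the methods' t-test unadjusted, and 0 to 1 without a replicate. The collagen median of 0.07 became 0.24 with the 75th percentile scaling, which moved the median of all genes from 0.02 to 0.11, then 0.11 with probes detected on every array and 0.12 with the median over probes, and 0.029 to 0.083 without a replicate. The methods' t-test, unadjusted, gave 3 genes after silencing and 4 for the difference of the mimic effects. The cause of these shifts was not tested. For the collagen genes called after the mimic with AGO2 present no direction was reversed. With AGO2 silenced COL24A1 differed by -0.05 over its kept probes, yet passed as higher with probes detected on every array. Over all genes 1329 passed in the silenced cells, against 2396 with the 75th percentile scaling, 2187 with normexp, 2033 with the authors' table, 2091 with probes detected on every array, 316 with the slide as a fixed block, 78 without the replicate block and 0 with only the compared arrays. After the mimic 4118 passed, against 1995 without the block and 1815 with only the compared arrays. After silencing 470 passed, against 1117 with probes detected on every array, 827 with normexp, 235 with the median over probes, 235 with only the compared arrays, 48 without the block and 35 with the slide as a random block. For the difference of the mimic effects 2 passed, against 291 with probes detected on every array, 150 with normexp, 99 with an intensity trend, 33 with the authors' table and 30 with the slide as a random block. A fixed slide block could not be fitted for silencing. Genes with few probes above background, such as COL28A1 and COL6A5, are limited by their signal.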
